A study of Mus musculus with 16 samples.

Results

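The fetal HSC program genes described here are Lin28a, Lin28b, Hmga2, Igf2bp1, Igf2bp2, Igf2bp3 and Igf2, 7 of the 21851 protein-coding genes of the mouse annotation GENCODE M21 (build mm10). They were chosen by name, with earlier results of these data known. For each gene, histone mark peaks were collected over the gene body with 5 kb on either side (the gene window) and over its promoters, meaning the stretch from 1 kb before to 1 kb after each coding start site. In the 6 peak lists of the series, 129 of 122016 peaks lay in the 7 windows.

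The peaks came from chromatin immunoprecipitation followed by sequencing (ChIP-seq) of hematopoietic stem cells (HSCs) of C57BL/6 mice, young at 10 weeks and aged at 20 months. The cells were sorted from bone marrow as lineage-negative cells with Sca-1, c-Kit and CD150 and without CD34, CD48 and Flt3, and the study's methods describe the mice as female. Each age had 2 libraries for H3K4me3, 2 for H3K27me3, 2 for H2AK119ub1 and 2 for input DNA, which makes 16 libraries in 8 groups. The peaks were deposited as 1 pooled list per mark and age, so that the lists hold no replicate values, no test was made, and each difference between ages given here is a difference between 2 lists.

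Lin28a and Lin28b encode RNA-binding proteins that block the maturation of let-7 microRNAs, and Lin28b together with its targets is known for setting the fetal state of HSCs. Hmga2, a chromatin architectural protein, is a classic let-7 target that supports the self-renewal of fetal stem cells. Igf2bp1, Igf2bp2 and Igf2bp3 encode RNA-binding proteins that stabilize and localize transcripts in the embryo, and Igf2 encodes an imprinted fetal growth factor. Most of these genes are turned off or lowered after birth. H3K4me3 marks active promoters, whereas H3K27me3 and H2AK119ub1 are placed by the Polycomb complexes PRC2 and PRC1, respectively, and are found at silent developmental genes.

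The lists differed in size. They held 11371 young and 6723 aged H3K4me3 peaks, 63142 young and 20419 aged H3K27me3 regions, and 2593 young and 17768 aged H2AK119ub1 regions, with median pileups of 20 and 19 reads in the young and aged H3K4me3 lists. Of 7 HSC marker genes, promoter H3K4me3 was listed at 4 in young and 5 in aged HSCs, against 33.8% and 23.3% of all genes. Procr, Mecom, Hlf and Meis1 had it at both ages. Of the 7, 0 had a promoter peak of either Polycomb mark. The young and aged shares of all genes were 16% and 8.24% for H3K27me3, and 1.91% and 14% for H2AK119ub1. Kit had its promoter peak only in the aged list, and Slamf1 (CD150) and Ly6a (Sca-1), whose products defined the sort, had none in either list. Of 8 markers of other cell types, 1 in the young list (Epor) and 0 in the aged list had a promoter H3K4me3 peak, and over their windows H3K4me3 covered 0.524% and 0.223% of the length in young and aged HSCs, against 1.57% and 0.589% for the HSC markers. Promoter H3K27me3 was listed at 2 of these 8 in young (Cd3e and Epcam) and 0 in aged HSCs, and promoter H2AK119ub1 at 0 at both ages.

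The sequences that carry the findings come from the start sites of 5 members. RefSeq's promoter table (GRCm38.p6, the mm10 assembly) held 9 entries for 6 of the 7 genes, and Igf2bp1 had no entry. Of each entry only the bases before the start site that lie in no annotated exon are printed, 5′ to 3′ on the minus strand, on which all 7 genes lie, with each CpG in capitals. The Lin28b sequence (chr10:45470202-45470451) spans the gap between the widest H3K4me3 peak and the widest H3K27me3 region of the 7 genes. Hmga2 (chr10:120476470-120476719) is the start with H3K4me3 at both ages and without H3K27me3. Igf2bp2 (chr16:22163300-22163549) and Igf2bp3 (chr6:49214958-49215204) are the starts with the highest ratios of observed to expected CpGs among the 9 entries. The Igf2 sequence (chr7:142661306-142661521) lay wholly in a young H3K27me3 region.
Lin28b: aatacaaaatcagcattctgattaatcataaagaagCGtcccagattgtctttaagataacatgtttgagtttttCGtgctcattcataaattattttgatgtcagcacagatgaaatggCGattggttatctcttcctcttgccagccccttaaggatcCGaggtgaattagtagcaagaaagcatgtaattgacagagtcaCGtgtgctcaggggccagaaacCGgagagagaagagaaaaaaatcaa
Hmga2: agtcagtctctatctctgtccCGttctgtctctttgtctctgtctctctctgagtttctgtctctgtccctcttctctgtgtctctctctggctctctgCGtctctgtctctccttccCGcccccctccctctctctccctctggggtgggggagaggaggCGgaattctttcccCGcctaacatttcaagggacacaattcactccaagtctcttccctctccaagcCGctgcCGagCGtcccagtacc
Igf2bp2: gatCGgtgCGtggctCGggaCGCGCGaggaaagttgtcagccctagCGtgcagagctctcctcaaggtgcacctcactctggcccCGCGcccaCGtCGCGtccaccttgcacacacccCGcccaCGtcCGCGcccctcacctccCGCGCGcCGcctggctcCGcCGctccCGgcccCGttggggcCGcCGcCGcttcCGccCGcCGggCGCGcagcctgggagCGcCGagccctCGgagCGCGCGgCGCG
Igf2bp3: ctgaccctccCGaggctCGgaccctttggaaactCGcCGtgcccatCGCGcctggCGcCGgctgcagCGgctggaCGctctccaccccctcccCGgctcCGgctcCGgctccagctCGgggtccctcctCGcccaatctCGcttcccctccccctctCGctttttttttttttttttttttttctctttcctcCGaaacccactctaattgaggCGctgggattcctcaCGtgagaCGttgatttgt
Igf2: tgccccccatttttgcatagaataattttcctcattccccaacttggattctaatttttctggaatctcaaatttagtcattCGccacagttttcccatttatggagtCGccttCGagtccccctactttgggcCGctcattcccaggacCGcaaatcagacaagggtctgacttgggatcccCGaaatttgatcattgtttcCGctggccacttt

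The start sites differed in base composition. The 250 bases before the start held 40 CpGs in Igf2bp2, with a ratio of observed to expected CpGs of 1.11, and 21 in Igf2bp3, with a ratio of 1.00. Over 21262 protein-coding promoter entries the median was 10 CpGs and a ratio of 0.530, and only 2.73% and 7.54% of entries had a higher ratio than Igf2bp2 and Igf2bp3. Lin28b, with 39.2% GC and 6 CpGs (0.631), and Hmga2, with 56.4% GC and 8 CpGs (0.453), were in the middle of the range. Lin28a had 7 CpGs and a ratio of 0.336. The 4 Igf2 entries ran from 1 CpG and a ratio of 0.0637 at the most upstream start to 22 CpGs and a ratio of 0.881 at the start at position 142658804. All 250 bases of that last entry lay in annotated exons, so it is not printed.

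**Figure D1:**
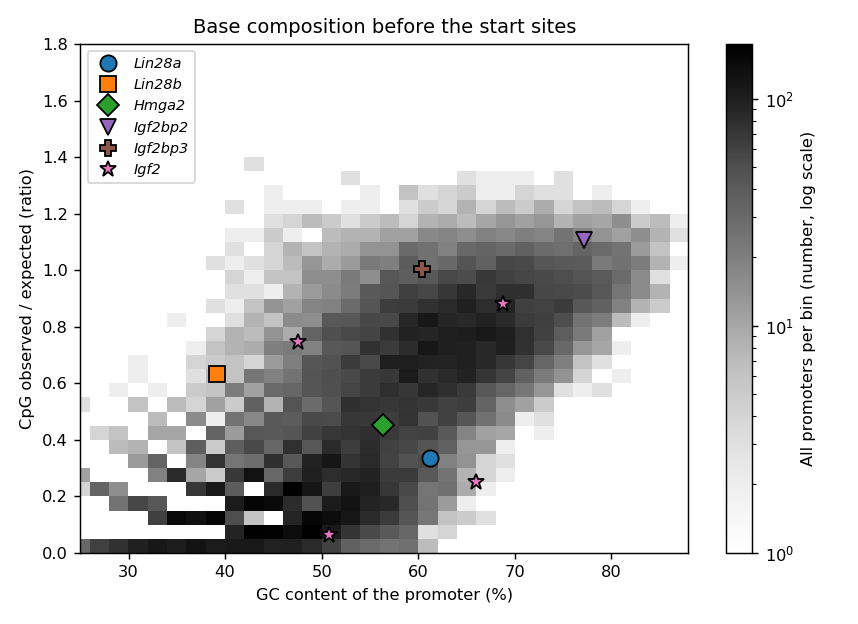
GC content (horizontal axis, %) against the ratio of observed to expected CpGs (vertical axis) in the 250 bases before each RefSeq start site. Gray squares count all 21262 protein-coding entries per bin on a log scale and symbols mark the 9 entries of 6 members, with Igf2bp2 (77.2% GC, 1.11) and Igf2bp3 (60.4% GC, 1.00) high and the most upstream Igf2 start (50.8% GC, 0.0637) low.

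Short motifs were searched in the same 250 bases on both strands. The GC box GGGCGG was found once in Hmga2, 2 times in Igf2bp2, 2 times before the Igf2 start at position 142657496 and once before that at 142658804, and 42.6% of all entries held it. CCAAT was found once each in Lin28b, Igf2bp3 and before the Igf2 start at 142657496, against 35.4% of all entries. The TATA motif TATAAA was found in none of the 9 entries, and 11.6% of all entries held it. These motifs do not overlap one another, and a match describes letters only.

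The map of listed peaks around the start sites shows the layout of the marks. In the young list H3K27me3 formed wide regions on both sides of the starts of Lin28a, Igf2bp1 and Igf2bp3, upstream of Lin28b, and across the starts of Igf2. In the aged list the regions were shorter by their median, and there were more of them in every gene with the mark but Igf2, which had 8 young and 4 aged regions. Not every region was shorter, since one over a coding exon of Igf2bp3 measured 1106 bp in young and 1109 bp in aged HSCs. H2AK119ub1 was sparse in the young list and was listed around every one of the 7 genes in the aged list. H3K4me3 was listed at few of the starts, and Hmga2 was the gene with H3K4me3 over its start and no H3K27me3 at all.

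**Figure D2:**
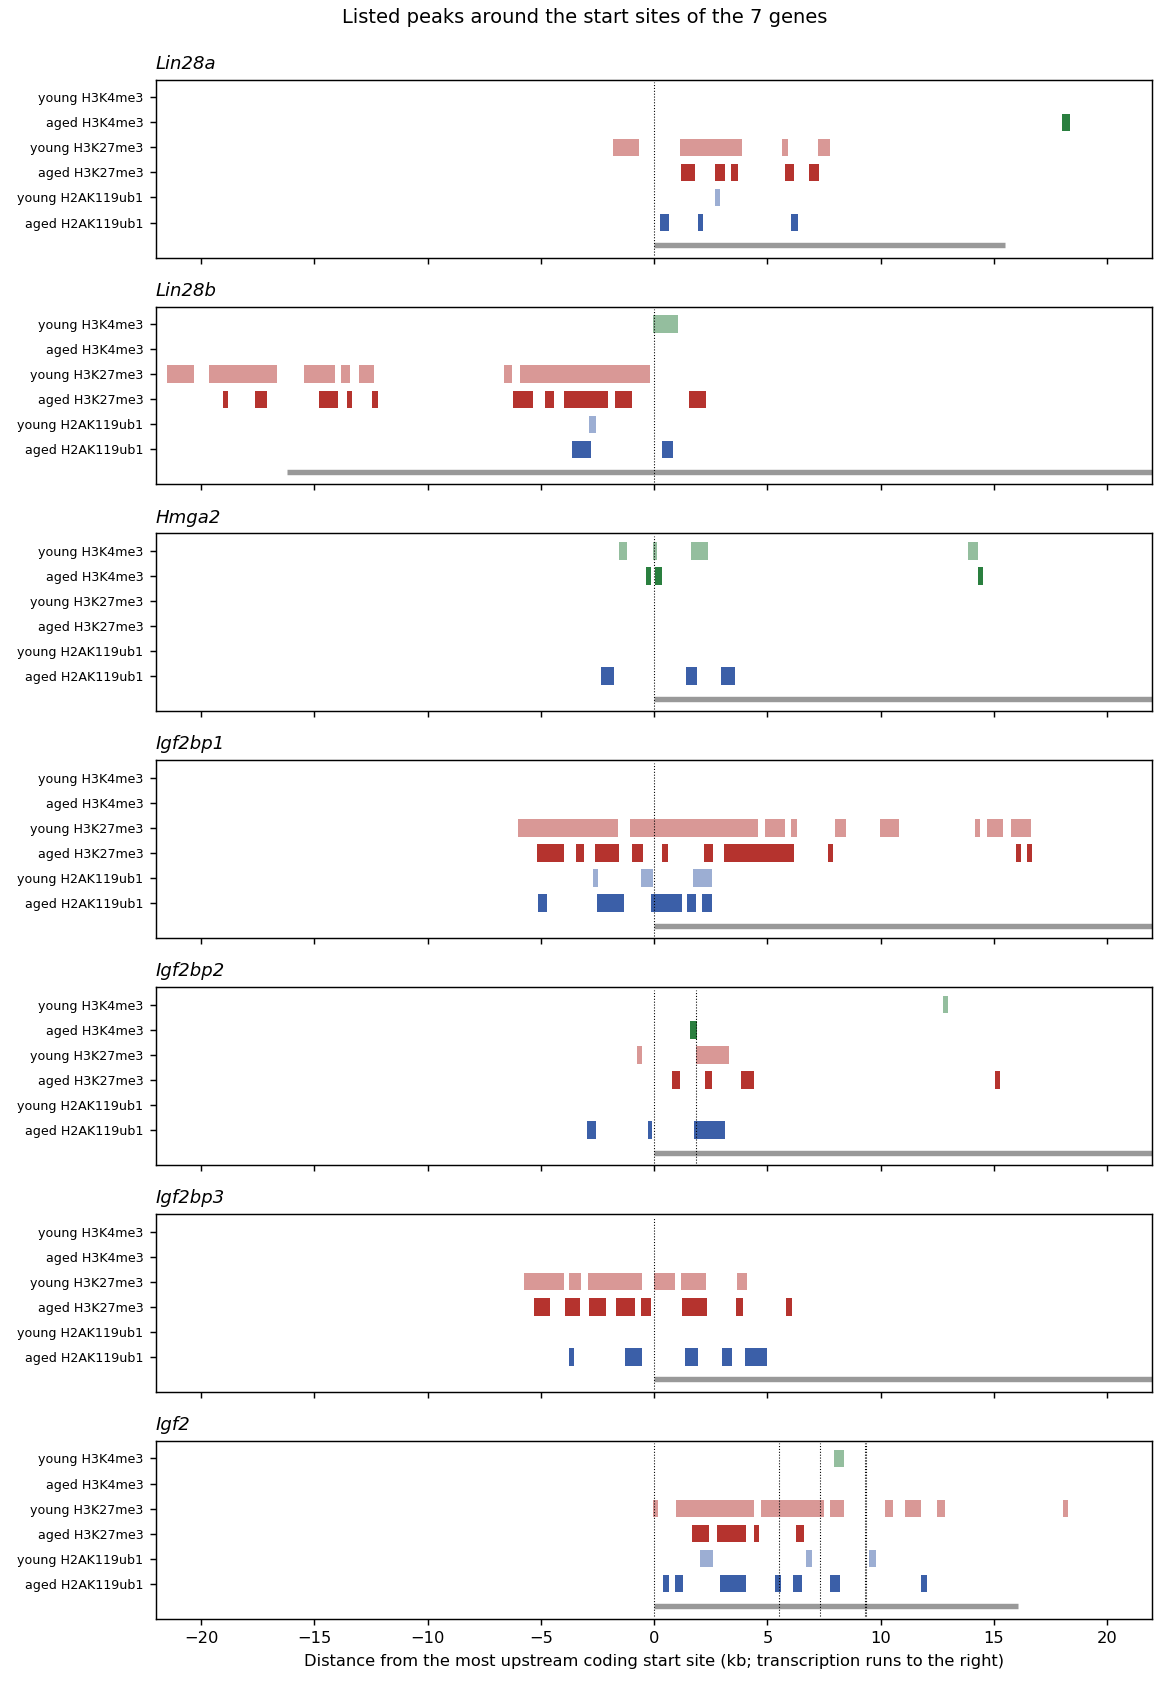
Peaks of the 6 lists around each gene, drawn to scale against the distance in kb from the most upstream coding start site (0), with transcription running to the right, dotted lines at the coding starts, a gray bar for the gene body, and light and dark colors for young and aged. The 4 peaks of the windows that lie more than 22 kb away are not drawn, and the row pairs show H3K27me3 at all genes but Hmga2, with less length covered in the aged list.

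H3K27me3 had promoter peaks in 6 of the 7 genes in the young list, against 16% of all protein-coding genes, and in 5 of 7 in the aged list, against 8.24% of all genes. The gene without one at either age was Hmga2, and Lin28a had one in the young list only. Lin28b was counted in the aged list through a region 999 bp from its start. This order of the ages depends on the rule, since with at least 50% of a region required inside the promoter 3 genes had one in young HSCs and 4 in aged HSCs, and with promoters of 2 kb on either side 6 genes had one in each. It also depends on list length. With the same number of regions at both ages, 5 genes had promoter H3K27me3 in each list. In the whole windows the counts were then 5 in young and 6 in aged HSCs. In the whole windows, 6 of 7 genes had H3K27me3 in the young list (27.8% of all genes), the same 6 had it in the aged list (16.5%), and therefore at both ages (15.8%). The windows of the 7 genes are long, with a median of 114 kb against 27.4 kb for all genes, so that shares of length were compared as well. H3K27me3 covered 7.76% of the summed member windows in the young list and 4.11% in the aged list, while over all genes it covered 2.16% and 0.561%. The median member had 10.3% and 5.68% of its window covered, and the median of all genes was 0 in both lists.

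The covered length was lower in the aged than in the young list in all 6 genes with H3K27me3. This was the direction of the lists as a whole, found in 27.3% of all genes and in 95.6% of the 6228 genes with H3K27me3 in their window at either age. Together the 7 windows had 47.3 kb in young and 25.0 kb in aged regions, a ratio of aged to young of 0.530, while the ratio over all genes was 0.259. The ratio was lowest in Igf2 (0.295), was 0.458 in Lin28a, 0.546 in Igf2bp1 and 0.550 in Lin28b, and was highest in Igf2bp3 (0.745) and Igf2bp2 (0.848). The number of regions was not lower, since the windows held 36 young and 41 aged regions. The median width of these regions was 794.5 bp in young and 421 bp in aged HSCs. Of the aged covered length, 79.5% (19900 bp) lay inside young regions, against 66.4% for the whole aged list, and 35 of the 41 aged regions touched a young one. When the young list was shortened to the 20419 regions with the lowest p-values, so that both lists were equally long, the young covered length was 36943 bp, still above the aged 25028 bp, but Igf2bp2 was then at 0 bp in young and 1429 bp in aged HSCs.

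H2AK119ub1 went the other way. A promoter region was listed in 2 of 7 genes in the young list, Igf2bp1 and Igf2, against 1.91% of all genes, and in 6 of 7 in the aged list, all but Hmga2, against 14%. In the whole windows it was listed in 4 of 7 genes in the young list (5.99% of all genes), in 7 of 7 in the aged list (29%) and in 4 at both ages (5.47%). The covered length was higher in the aged list in all 7 genes, again the direction of the lists as a whole, found in 28.5% of all genes and in 96.7% of the 6442 genes with the mark at either age. The sum was 3.18 kb in young and 16.7 kb in aged HSCs. This ratio of 5.26 stood beside 7.95 over all genes. The young and aged regions of this mark mostly lay in different places, with 747 bp shared, or 23.5% of the young and 4.47% of the aged length. For the whole lists these shares were 40.5% and 5.17%.

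The aged values of this mark depended on the length of the aged list. With the aged H2AK119ub1 list shortened to its 2593 regions with the lowest p-values, the number of the young list, the 7 windows held 3911 bp, 5 of 7 genes had a region and 1 of 7, Igf2bp2, a promoter region. Igf2bp1 and Igf2, with 1556 and 1100 bp in the young list, were then at 0 bp in the aged list, and Lin28a had 207 bp against 211 bp in the young list, so that the direction in these 3 genes depends on where the aged list ends. Hmga2, Igf2bp2 and Igf2bp3, which had 0 bp in the young list, kept 492, 1408 and 955 bp.

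**Figure D3:**
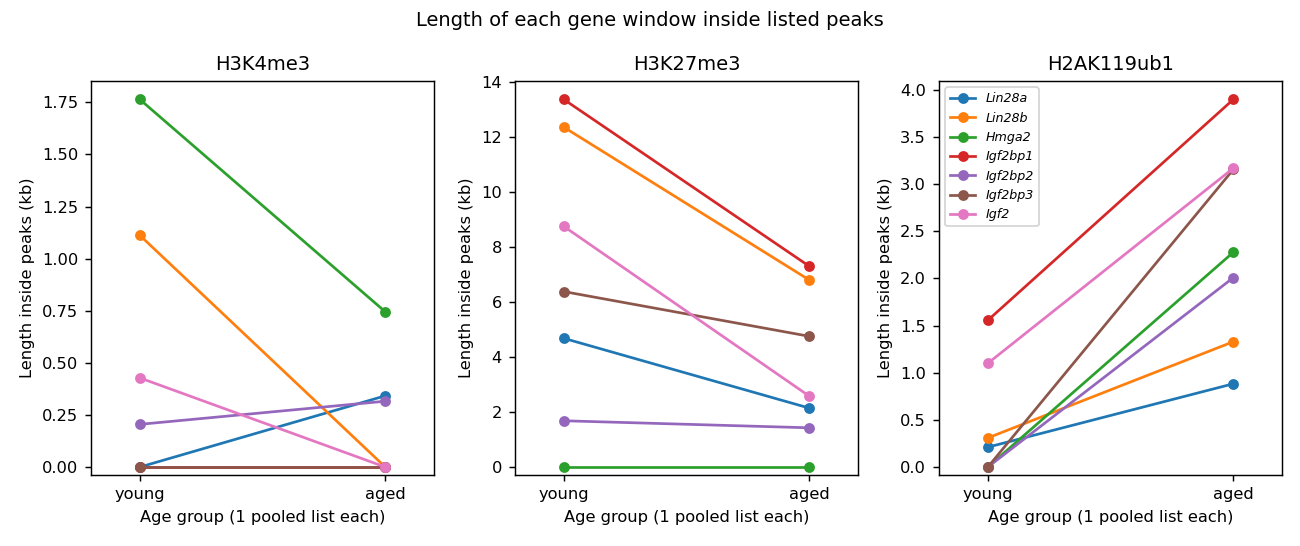
Length of each gene window inside listed peaks (vertical axis, kb) at each age (horizontal axis), 1 panel per mark and 1 line per gene, with a vertical scale of its own in each panel. H3K27me3 lines slope down in the 6 genes that have it (for Igf2bp1 from 13.4 to 7.31 kb) and H2AK119ub1 lines slope up in all 7 (for Igf2bp1 from 1.56 to 3.90 kb).

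For H3K4me3 the counts of members were close to the background. A promoter peak was listed in 3 of 7 genes in young HSCs, Lin28b, Hmga2 and Igf2, against 33.8% of all genes, and in 2 of 7 in aged HSCs, Hmga2 and Igf2bp2, against 23.3%. In the whole windows the counts were 4 of 7 (40.6% of all genes) and 3 of 7 (29%). The covered length was 3.51 kb in young and 1.40 kb in aged HSCs, a ratio of 0.400 against 0.531 over all genes. The aged count and length include a 342-bp peak in the flank of Lin28a, 27 bp from a start of the neighboring gene Dhdds. In gene bodies alone, 2 genes had aged H3K4me3. Of the young length only 125 bp, in Hmga2, lay inside an aged peak, which is 3.56% against 21.4% for the whole young list.

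**Figure D4:**
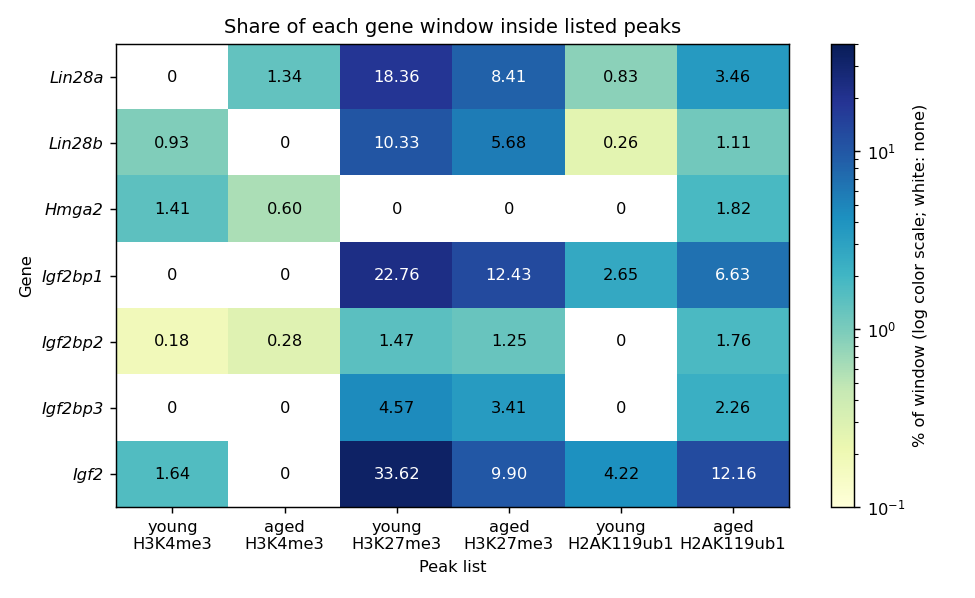
Share of each gene window inside listed peaks (numbers and color, % on a log scale) for 7 genes (rows) and 6 lists (columns), with white cells at 0. The H3K27me3 columns are the darkest, from 33.6% in Igf2 down to 1.47% in Igf2bp2 in the young list, while Hmga2 is at 0 in both.

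Lin28a (chr4:134003330-134018841) was marked by H3K27me3 downstream of its start. In young HSCs 4 regions covered 4685 bp, or 18.4% of the window, and in aged HSCs 5 regions covered 2146 bp, or 8.41%. The main young region, chr4:134014964-134017696, measured 2733 bp, began 1145 bp into the gene and had a fold enrichment over background of 3.95. Its length was replaced in the aged list by 3 regions of 294, 440 and 614 bp, all inside it, with folds from 3.17 to 3.27. A young region of 1152 bp began 664 bp upstream of the start (3.32-fold) and had no counterpart in the aged list, which left Lin28a without a promoter H3K27me3 peak at that age. The nearest aged region was 1195 bp from the start, and with promoters of 2 kb on either side or start sites of all transcripts Lin28a had a promoter peak at both ages, whereas with 500 bp or at least 50% of the region inside it had none at either. H2AK119ub1 covered 211 bp in young HSCs, inside the 2733-bp region, and 883 bp in aged HSCs. The aged regions included one of 397 bp at 272 bp past the start and an intronic one of 207 bp whose fold of 4.26 was rank 134 of the 17768 in that list. H3K4me3 was not listed in the young window, with the nearest peak 108203 bp from the start. The aged peak of 342 bp (5.75-fold) lay in the flank beyond the 3′ end, 27 bp from a start of the neighboring gene Dhdds, and is therefore not at a Lin28a start.

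Lin28b (chr10:45376620-45486395) had both H3K4me3 and H3K27me3 at its coding start in young HSCs, side by side. The H3K4me3 peak, chr10:45469135-45470246, measured 1112 bp, was 4.89-fold enriched, covered the start and ranked 30 by width among the 11371 young peaks. A gap of 122 bp separated it from an H3K27me3 region of 5752 bp upstream, chr10:45470369-45476120, which was the widest of the 129 peaks (3.89-fold). In the printed sequence, the 45 bases at the start site end belong to the H3K4me3 peak and the 83 bases at the far end to the H3K27me3 region. In aged HSCs no H3K4me3 peak was listed within 402227 bp of the start. The upstream H3K27me3 was listed there as 4 regions of 725, 1945, 408 and 878 bp, and a further aged region of 759 bp lay 1538 bp inside the gene, where the young list had none. Only the 725-bp region reached the promoter in aged HSCs, with its near edge 999 bp from the start. With promoters of 500 bp, or at least 50% of the region inside, Lin28b had no aged promoter H3K27me3. Altogether 7 young regions covered 12369 bp (10.3% of the window) and 10 aged regions 6807 bp (5.68%). The 5 other young regions beyond 12 kb, of 386 to 3019 bp, began 12357 to 20330 bp upstream, around the starts of longer Lin28b transcripts, and 5 aged ones of 200 to 874 bp lay in the same stretch. H2AK119ub1 covered 309 bp in young HSCs within the 5752-bp region, and 1329 bp in aged HSCs, of which 480 bp lay 363 bp inside the gene, within the span that carried H3K4me3 in the young list.

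Hmga2 (chr10:120361275-120476469) differed from the other members. No H3K27me3 was listed in its 125-kb window at either age, and the nearest regions were 74675 bp (young) and 74045 bp (aged) from the start. H3K4me3 was listed as 4 young peaks covering 1764 bp and 3 aged peaks covering 745 bp. A young peak of 203 bp lay over the start (4.25-fold) and an aged peak of 307 bp, chr10:120476139-120476445, ended 24 bp inside the gene (4.86-fold), and the pair shared 108 bp. Another aged promoter peak of 238 bp began 147 bp upstream, and the young list had peaks 1632 bp downstream (737 bp, 4.23-fold) and 1192 bp upstream (365 bp, 3.83-fold). An intronic peak 13858 bp into the gene was listed at both ages, with 459 bp and 5.04-fold in young and 200 bp and 3.96-fold in aged HSCs, and these shared 17 bp. H2AK119ub1 was not listed within 232743 bp of the start in young HSCs. In aged HSCs it had 5 regions covering 2277 bp, namely 492 and 635 bp at 1420 and 2933 bp inside the gene, 574 bp at 1764 bp upstream, and 2 short intronic regions farther away, with folds from 3.09 to 3.80. None was within 1 kb of the start and none touched an H3K4me3 peak, with a gap of 1089 bp between the closest pair. Aged H2AK119ub1 in a window without H3K27me3 at either age, found here in 1 of 7 genes, was found in 12.7% of all genes.

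Igf2bp1 (chr11:95957163-96005940) carried the most Polycomb marking by length. In young HSCs 9 H3K27me3 regions covered 13380 bp (22.8% of the window), and in aged HSCs 10 regions covered 7307 bp (12.4%). A young region of 5643 bp, chr11:96001354-96006996, spanned the start (3.76-fold), and another of 4399 bp lay 1609 bp upstream (3.82-fold). In the aged list no H3K27me3 region covered the start, and the nearest were regions of 268 bp at 330 bp inside and 500 bp at 501 bp upstream. An aged intronic region of 3116 bp, chr11:95999752-96002867, ranked 58 by width among 20419 and lay mostly, over 2568 bp, inside young regions. H2AK119ub1 covered 1556 bp in 3 young regions, all inside H3K27me3, and 3897 bp in 6 aged regions, of which the widest, 1363 bp at chr11:96004725-96006087, covered the start (3.27-fold). The young region of 812 bp ranked 91 by width among 2593. No H3K4me3 peak was in the window at either age, and the nearest were 28990 bp (young) and 28690 bp (aged) from the start.

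Only Lin28b and Igf2bp1 had stretches that lay in all 4 Polycomb lists, that is in H3K27me3 and H2AK119ub1 regions at both ages. In Lin28b this stretch was 70 bp long, 2800 bp upstream of the coding start (chr10:45473001-45473070). Igf2bp1 had a stretch of 33 bp upstream and another of 340 bp in an intron, 2194 bp inside the gene (chr11:96003407-96003746), of which the middle 300 bases, chr11:96003427-96003726, are printed. Both sequences are shown because they are where the marks coincide, on the minus strand with CpGs in capitals. None touched an annotated exon. The Lin28b stretch held 2 CpGs, with a ratio of observed to expected of 0.433, and the 300 bases of Igf2bp1 held 3, with a ratio of 0.148.
Lin28b, all 4 Polycomb lists: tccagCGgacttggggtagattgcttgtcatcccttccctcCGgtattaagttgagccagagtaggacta
Igf2bp1, all 4 Polycomb lists: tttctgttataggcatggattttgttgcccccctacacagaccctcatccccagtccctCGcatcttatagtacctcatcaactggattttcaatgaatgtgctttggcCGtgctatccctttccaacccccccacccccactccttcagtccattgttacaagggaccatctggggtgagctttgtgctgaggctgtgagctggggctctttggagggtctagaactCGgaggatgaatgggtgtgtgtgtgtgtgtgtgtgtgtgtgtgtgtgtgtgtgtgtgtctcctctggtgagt

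Igf2bp2 (chr16:22059009-22163299) had the least H3K27me3 of the 6 genes that carried it, at 1685 bp (1.47% of the window) in young and 1429 bp (1.25%) in aged HSCs. It has 2 coding starts. In young HSCs a region of 1462 bp, chr16:22159981-22161442, ended 8 bp short of the downstream start (3.00-fold), and one of 223 bp lay 517 bp before the upstream start. In aged HSCs 284 bp of the same stretch were listed again (3.58-fold), and only these were shared. The downstream start was covered in aged HSCs by an H3K4me3 peak of 316 bp, chr16:22161418-22161733 (5.08-fold, rank 571 of 6723), and by an H2AK119ub1 region of 1408 bp (3.58-fold), which overlapped over 144 bp. This was the only overlap of H3K4me3 with H2AK119ub1 in the 7 windows. The young H3K4me3 list had 1 peak in the gene, 205 bp and 3.83-fold, at 10905 bp from the nearest start. A short aged H2AK119ub1 region of 200 bp began 95 bp before the upstream start, and 156 bp of it lay in the CpG-rich sequence printed above. The young H2AK119ub1 list had no region within 914144 bp of a start.

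Igf2bp3 (chr6:49085223-49214957) had H3K27me3 on both sides of its start at both ages. In young HSCs 6 regions covered 6387 bp (4.57% of the 140-kb window), and in aged HSCs 8 regions covered 4759 bp (3.41%). A young region of 931 bp lay over the start (3.56-fold), and the next upstream, 2395 bp at chr6:49215486-49217880, had the highest H3K27me3 fold of the 7 genes, 4.17, rank 566 of 63142. The aged regions did not cover the start. The nearest began 145 bp upstream (421 bp, 3.01-fold), and 80.8% of the aged length lay inside young regions. A region over a coding exon was alike at both ages, 1106 bp (3.14-fold) in young and 1109 bp (3.52-fold) in aged HSCs, with 1068 bp in common. H2AK119ub1 was not listed in the young window, where the nearest region was 11942 bp from the start, and covered 3155 bp in 6 aged regions. The widest, 955 bp in an intron, had a fold of 3.83, and one of 773 bp lay 521 bp upstream. H3K4me3 was listed no nearer than 48000 bp (young) and 48123 bp (aged).

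Igf2 (chr7:142650766-142666816) has 5 coding starts, and its window overlaps the protein-coding gene Gm49394, so that peaks here cannot be assigned to one or the other. In young HSCs it had the largest share of its window in H3K27me3 among the 7 genes, 33.6% or 8759 bp in 8 regions, and in aged HSCs it was second to Igf2bp1, with 9.90% or 2580 bp in 4 regions. The young regions of 2800 bp, chr7:142659305-142662104 (4.01-fold), and 3451 bp, chr7:142662403-142665853 (3.86-fold), covered most of the stretch between the starts, and the printed Igf2 sequence is part of the former. Of these, 365 and 2018 bp were listed again in aged HSCs, and no aged region covered a start. An H3K4me3 peak of 428 bp, chr7:142658435-142658862 (4.68-fold), lay wholly inside a young H3K27me3 region of 616 bp, the only overlap of these marks in the 7 windows, and in aged HSCs the nearest H3K4me3 peak was 196434 bp from a start. H2AK119ub1 had 3 young regions with 1100 bp, or 4.22% of the window, and 7 aged regions with 3168 bp, or 12.2%. A young region of 246 bp had a fold of 3.79, rank 155 of 2593. No base of the window was in H2AK119ub1 regions of both ages, and 1157 bp of aged H2AK119ub1 lay inside the widest aged H3K27me3 region.

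Both Polycomb marks were then set against each other. In young HSCs 2873 of 3176 bp of H2AK119ub1 (90.5%) lay inside H3K27me3, in all 4 genes that had it, and in aged HSCs 5794 of 16717 bp (34.7%) did, in 6 of 7 genes. Measured against the young H3K27me3 list, 9921 bp (59.3%) of the aged H2AK119ub1 lay inside. For the whole H2AK119ub1 lists these shares were 74.4%, 26.4% and 49.8%, so that the members followed the order of the lists.

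The Polycomb regions of the members were close in median height to those of their lists, and their H3K4me3 peaks were higher. The median fold was 3.31 for young and 3.22 for aged H3K27me3 and 3.30 and 3.28 for young and aged H2AK119ub1, and the medians of the whole lists were 3.10, 3.13, 3.24 and 3.22. For H3K4me3 the median fold of the members was 4.25 in young and 4.86 in aged HSCs, above the median of the list at both ages. These medians rest on 7 and 5 peaks. Above the 95th percentile of their list were 6 of 36 young and 1 of 41 aged H3K27me3 regions, 0 of 8 young and 1 of 32 aged H2AK119ub1 regions, 0 of 7 young and 1 of 5 aged H3K4me3 peaks. The 6 of 36 young H3K27me3 regions are a larger share than the whole list has above that percentile. In young H3K27me3, 8 of 36 regions were wider than 1842 bp, the 95th percentile. The marks were also close to the starts, since 81.1% of young and 88.9% of aged H3K27me3 length and 93.7% of aged H2AK119ub1 length lay within 10 kb of a coding start, a zone that made up 19.9% of the windows. No such share is given for other genes, so this closeness is not shown to be particular to the members.

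**Figure D5:**
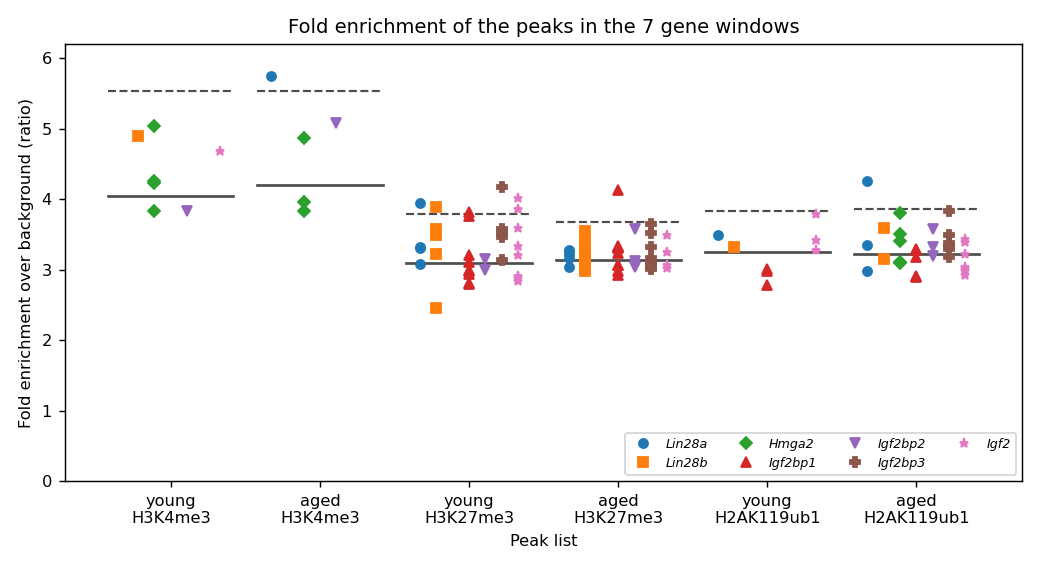
Fold enrichment over background (vertical axis, linear ratio) of each peak in the 7 gene windows, by list (horizontal axis) and gene (symbol), with the median (solid line) and 95th percentile (dashed line) of the whole list. The Polycomb regions lie between 2.45 and 4.26, and the highest point is the aged H3K4me3 peak in the flank of Lin28a (5.75). H3K4me3 folds belong to the summit of a peak and the broad lists have no summit, so heights are not comparable between H3K4me3 and the Polycomb marks.

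The let-7 processing genes act on the same microRNAs as Lin28a and Lin28b. Of 9 genes, 4 had promoter H3K4me3 in young HSCs (Tut4, Tut7, Xpo5 and Dicer1) and 4 in aged HSCs (Tut4, Dis3l2, Drosha and Xpo5), against 33.8% and 23.3% of all genes. Promoter H3K27me3 was listed in 1 of 9 at each age, Trim71, against 16% and 8.24%. Tut4 and Tut7 add uridines to the let-7 precursors that LIN28 holds, and Dis3l2 degrades them. Trim71, a let-7 target of the embryo, had 6811 bp of H3K27me3 in young and 5076 bp in aged HSCs, and 0 bp of H3K4me3. Promoter H2AK119ub1 was listed in 0 of 9 in young and in 1 of 9 in aged HSCs (Drosha), against 1.91% and 14% of all genes.

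The 12 let-7 genes themselves were mostly unmarked. Promoters were taken around the annotated hairpin start, which is not the start of the primary transcript. Mirlet7i had a promoter H3K4me3 peak in the young list only, and the neighbors Mirlet7f-2 and Mir98 on chromosome X shared H3K27me3 regions, 1803 bp in young and 470 bp in aged HSCs, while H2AK119ub1 was listed at 0 of 12. Of all protein-coding genes, 33.8% and 23.3% had promoter H3K4me3 in the young and aged lists. The shares were 16% and 8.24% for H3K27me3, and 1.91% and 14% for H2AK119ub1. RefSeq held mature sequences for all 12, and 11 genes gave the seed GAGGUAG, under 9 mature names. For Mirlet7a-2 it held only mmu-let-7a-2-3p, so that the seed of the other arm of that hairpin could not be read. The mature forms of the 3 genes with a promoter peak are shown with the seed (bases 2 to 8) in capitals, since this seed is what pairs with the transcripts of Hmga2, Lin28b and the other let-7 targets.
mmu-let-7i-5p: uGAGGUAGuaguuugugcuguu
mmu-let-7f-5p: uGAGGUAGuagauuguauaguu
mmu-miR-98-5p: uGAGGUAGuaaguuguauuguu

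Among 7 let-7 targets and related factors, 4 had promoter H3K4me3 in young HSCs (Arid3a, Myc, Plag1 and Plagl2) and 3 in aged HSCs (Myc, Mycn and Plagl2), against the same 33.8% and 23.3% of all genes. Promoter H3K27me3 was listed at 1 of 7 at each age, against 16% and 8.24% of all genes. The gene was Sox17, a transcription factor that fetal but not adult HSCs require, with 11408 bp in young and 4705 bp in aged HSCs. Promoter H2AK119ub1 was listed at 1 in young (Sox17) and 3 in aged HSCs (Myc, Mycn and Sox17), against 1.91% and 14%. Sox17 had 886 and 4842 bp of it, and 0 bp of H3K4me3. Myc and Mycn, general growth regulators, had promoter H2AK119ub1 in aged HSCs together with promoter H3K4me3 and without H3K27me3, as counted over their promoters. Hmga1, the paralog of Hmga2, had 370 bp of H3K4me3 in its window in young HSCs, 1062 bp of H2AK119ub1 in aged HSCs, and 0 bp of H3K27me3 at either age.

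Of 13 genes of the IGF axis, 2 had promoter H3K4me3 in young HSCs (Insr and Irs1) and 3 in aged HSCs (Igf1r, Insr and Irs2), against 33.8% and 23.3% of all genes. Promoter H3K27me3 was listed at 5 in young HSCs (Irs1, Igfbp2, Igfbp3, Igfbp5 and Igfbp6) and at 3 in aged HSCs (Irs1, Igfbp2 and Igfbp5), against 16% and 8.24%. Promoter H2AK119ub1 was listed at 1 (Igfbp5) and 6 (Igf1, Igf1r, Irs1, Igfbp2, Igfbp5 and Igfbp6), against 1.91% and 14%. Irs1, which relays receptor signals, had the most H3K27me3, 26972 bp in young and 5125 bp in aged HSCs. Igf2r, the receptor that clears IGF2, had 610 bp of H2AK119ub1 in young and 4095 bp in aged HSCs and no other mark.

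Of 8 imprinted growth genes, 0 had promoter H3K4me3 at either age. Promoter H3K27me3 was listed at 5 in young HSCs (Dlk1, Grb10, Mest, Peg3 and Plagl1) and at 2 in aged HSCs (Dlk1 and Peg3), against 16% and 8.24% of all genes, and promoter H2AK119ub1 at 0 and 2 (Dlk1 and Meg3), against 1.91% and 14%. Together their windows had 10589 bp of H3K27me3 in young and 739 bp in aged HSCs. Igf2 had 8759 bp in young and 2580 bp in aged regions, of which 2383 bp were in both. H19, the noncoding partner of Igf2 in its imprinted cluster, and Cdkn1c, a growth inhibitor, had 0 bp in all 6 lists.

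The combination of promoter marks was common for Hmga2 and uncommon for the others. H3K4me3 at both ages without Polycomb marks, as in Hmga2, was found at 3283 genes (15.0%). The combination of Igf2bp3, H3K27me3 at both ages and H2AK119ub1 in aged HSCs, was found at 570 genes (2.61%), that of Lin28a at 387 (1.77%), of Igf2bp1 at 191 (0.874%), of Lin28b at 148 (0.677%), of Igf2bp2 at 40 (0.183%) and of Igf2 at 30 (0.137%).

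The 3 genes whose windows were most like each member were found by the Euclidean distance, in percentage points, over the shares of window covered in the 6 lists. They were Col9a2 (1.37), Tex37 and Cntn2 for Lin28a, Fndc3c1 (1.26), Fgf13 and Tdgf1 for Lin28b, and Crkl (0.0736), Rhof and Golga2 for Hmga2. For the RNA-binding proteins they were Trim54 (1.44), Tmem145 and Wrap73 for Igf2bp1, Kif18b (0.371), Mical3 and Rnf169 for Igf2bp2, and Zfp428 (0.481), Mmgt1 and Gfra3 for Igf2bp3. For Igf2 they were Aqp5 (3.84), Gm49394 and Pianp, of which Gm49394 shares the Igf2 window. Igf2 had the largest distance to its nearest gene and Hmga2 the smallest. The distances were not scaled to the share covered, which reached 33.6% in Igf2 and only 1.82% in Hmga2. Their order therefore does not show which gene is the more unusual.

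All values rest on 6 pooled lists, and a gene without a listed peak may still carry the mark below the threshold of the caller. The peak names of the broad lists carry 1 library number, so that it is not certain that both libraries of a group entered them.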

How the data were processed

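ChIP-seq libraries of H3K4me3, H3K27me3, H2AK119ub1 and input were made from young and aged HSCs. Chromatin was cut with micrococcal nuclease and sonication, and single reads were aligned to mm10 with Bowtie2. The submitters' processing notes name MACS2 2.2.6. The deposited peak lists, 1 per mark and age, hold a linear ratio for each peak, its fold enrichment against the local background. The authors' peak caller added −log10 values of p and q, averaged over the region in the broad lists of H3K27me3 and H2AK119ub1. Thresholds of the caller, pooling and multiply aligned reads affect which peaks are listed. Peak lists hold no sequencing depth. For H3K4me3 the pileup was computed from the fold and p-value and came out whole, within 0.01 of −log10 p, for 100% of peaks.

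Peaks were overlapped with GENCODE M21 genes (basic coding transcripts) by at least 1 bp with pysam 0.24.0, pandas 2.3.3 and numpy 2.4.6 under Python 3.11.15, and plots were drawn with matplotlib 3.10.9. Peak widths are whole, and covered lengths stop at the window edge. Overlap and recovery code was tested on simulated data. All 7 members were named with every peak in their windows, the nearest peak where a list had none, and the 3 likest genes. The members and gene lists were chosen with earlier results of these data known. One marker of other cell types is not reported here, and its list was counted without it. No test was made, since each group is 1 list. Alternatives changed the promoter width, start sites, overlap, window, q-value threshold, list length and joining of peaks.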

Additional observations from a re-analysis of the deposited data

How the results depend on the processing

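Counts and covered lengths were recomputed under each alternative, and 79 values moved by no more than 1.5 times whereas 17 moved by more. With promoters of 500 bp on either side, 3 genes had aged promoter H3K27me3, and with at least 50% of the region required inside, 3 had young and 4 aged promoter H3K27me3, which turns the order of the ages. In gene bodies alone the aged H3K4me3 length was 823 bp. With a −log10 q of at least 4, which kept 1601 young and 39 aged H3K27me3 regions and 5 young and 128 aged H2AK119ub1 regions, young H3K27me3 was at 2 promoters and 3 windows with 12038 bp, and aged H3K27me3 and H2AK119ub1 of both ages were at 0 promoters, 0 windows and 0 bp. With equal numbers of peaks at both ages, aged H2AK119ub1 was at 1 promoter with 3911 bp. The shares of all genes given above belong to the main settings, and none is given for these alternatives. Wider promoters, start sites of all transcripts, wider windows and joined peaks moved no value by more than 1.5 times. No paired analysis was possible because the lists pool the libraries and keep no replicate numbers. Few member regions had a high −log10 q, so counts of Polycomb regions here rest on regions near the threshold of the caller, and a missing region is not evidence that the mark is missing.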
